A study of Mus musculus with 19 samples.

Results

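The Hox cluster genes are the 39 protein-coding genes of the mouse Hoxa, Hoxb, Hoxc and Hoxd clusters. They were chosen by symbol, as Hox followed by a cluster letter and a number, among 54119 genes of the GENCODE M21 annotation (build GRCm38), and all 39 were found. The values below are of 38 of them. Levels are in TPM (transcripts per 1000000), which corrects for transcript length, so levels of different genes can be set side by side. Transcript values were summed per gene.

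RNA was sequenced from 19 libraries of mouse embryonic stem cells (mESC) and epiblast-like cells (EpiLC) in 6 groups. The XX wildtype cells and the Tet3-/- cells, labelled as XX mutants, were of the LF2 strain, and the XY wildtype cells were of the E14 strain. The mESC were sequenced in 3 libraries each for XX and XY and in 4 for Tet3-/-, and the EpiLC in 3 for each genotype, with mutants #1 to #4 in mESC and #1, #3 and #4 in EpiLC. The mESC of every genotype were kept in 2i medium (N2B27 with inhibitors of GSK3 and of MEK1/2) with LIF, and the EpiLC of every genotype had been fed FGF5 and Activin A without LIF for 5 days. The design asks whether mESC need TET3, an enzyme that oxidises methylated cytosine, to become EpiLC. Sex and cell line cannot be told apart, because each wildtype sex came from 1 line. Whether the numbered mutants are separate clones, and whether the replicates are separate cultures, is not given in the sources used here, so the p-values measure only the spread between these samples.

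Hox genes encode transcription factors that bind DNA through a homeodomain and give cells their position along the head-to-tail axis of the embryo. The genes lie in clusters in the order of their paralogue number, and low numbers are switched on earlier and nearer to the head than high numbers. Pluripotent cells hold the clusters at a low level under Polycomb repression, and the genes are first activated in the posterior epiblast and primitive streak, where Cdx factors, Wnt signals and retinoic acid act upstream of them.

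The homeobox stretch of 3 genes is shown because these were the only described Hox genes that reached 1 TPM in any library. It also shows how alike this stretch is among the 3, which bears on how far they could share reads. Each line gives 60 coding bases, 5′ to 3′, around the codons for the homeodomain motif WFQNRR, which was found in all 38 genes, read from the GENCODE M21 transcript (GRCm38). Lower case marks the 34 bases that are identical in all 3 genes, and capitals mark positions at which at least 1 of them differs.
Hoxc4: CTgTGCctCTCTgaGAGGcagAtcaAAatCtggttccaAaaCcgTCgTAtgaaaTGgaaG
Hoxc12: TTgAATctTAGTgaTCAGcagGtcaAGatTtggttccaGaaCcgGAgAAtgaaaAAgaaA
Hoxc13: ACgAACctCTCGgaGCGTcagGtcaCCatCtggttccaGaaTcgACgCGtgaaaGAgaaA
Pairs of these windows were identical at 40 to 42 of 60 bases. The longest exact run that the transcript read for each gene shares with another Hox gene was 21 bases for Hoxc13 (with Hoxd4), 20 for Hoxc4 (with Hoxc6) and 18 for Hoxc12 (with Hoxd10). Only coding transcripts of the 38 genes were compared, while the summed values also hold other transcripts. Longer runs exist among the coding transcripts of other members, up to 52 bases between Hoxa6 and Hoxb4 and 50 between Hoxb9 and Hoxc9. Values of those genes are less certain where reads are short, and read length is not given in the sources used here.

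Hox RNA was low in every library, and more of it was found in mESC than in EpiLC. The 38 genes together summed to 6.80, 7.10 and 8.59 TPM in the XX mESC libraries, to 7.90, 8.34 and 11.4 TPM in XY mESC, and to 11.4, 8.19, 7.34 and 12.9 TPM in Tet3-/- mESC #1 to #4. In EpiLC the sums were 1.88, 1.40 and 1.90 TPM in XX, 2.13, 1.59 and 1.48 TPM in XY, and 2.23, 3.56 and 2.11 TPM in Tet3-/- #1, #3 and #4. Every mESC library lay above every EpiLC library. The mESC mean was 4.34 times the EpiLC mean in XX, 5.31 times in XY and 3.78 times in Tet3-/-. In these bulk samples, fewer cells with Hox RNA and less Hox RNA per cell cannot be told apart.

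**Figure D1:**
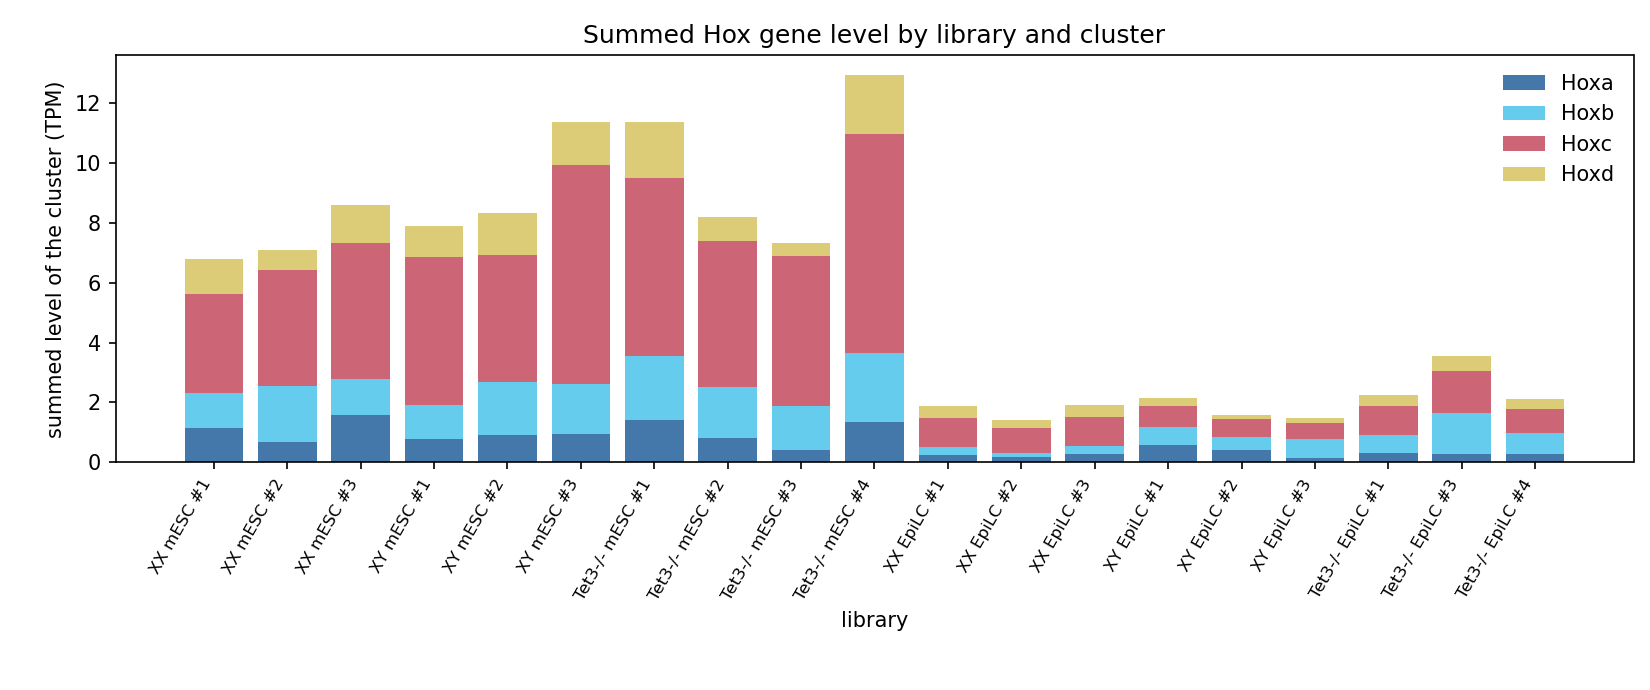
Summed TPM of the 38 Hox genes (y axis) in each of the 19 libraries (x axis, grouped by genotype and state), with the parts of each bar showing the Hoxa, Hoxb, Hoxc and Hoxd clusters. The 10 mESC bars lie between 6.80 and 12.9 TPM and the 9 EpiLC bars between 1.40 and 3.56 TPM, and Hoxc forms the largest part of the mean mESC bar in each genotype.

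Of the 38 genes, only Hoxc4, Hoxc12 and Hoxc13 reached 1 TPM in a library, and the other 35 genes stayed under 1 TPM in all 19. The highest of those 35 were Hoxb13 (0.928 TPM), Hoxd8 (0.891 TPM) and Hoxb9 (0.886 TPM). Group means of at least 1 TPM were reached by Hoxc13 in XX mESC, by Hoxc4 and Hoxc13 in XY mESC, by Hoxc4, Hoxc12 and Hoxc13 in Tet3-/- mESC, and by none of the 38 in EpiLC. A group mean of at least 0.1 TPM in some group was reached by 26 of the 38. Per library, 0 to 7.89% of the 38 genes had at least 1 TPM, against 46.3% to 52.9% of all protein-coding genes.

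In the group means the Hoxc cluster held more Hox RNA in mESC than the other clusters together, mostly from Hoxc4, Hoxc12 and Hoxc13. These genes alone gave on average 41.8%, 45.9% and 50.6% of the Hox sum in XX, XY and Tet3-/- mESC. Hoxc (chromosome 15, 102921103 to 103036852) gave on average 51.9%, 59.3% and 59.2% of the Hox sum in XX, XY and Tet3-/- mESC, and all 9 of its genes had a group mean of at least 0.1 TPM. Hoxa (chromosome 6, 10 genes described, 52162417 to 52260880) summed to a mean of 1.13, 0.875 and 0.994 TPM in XX, XY and Tet3-/- mESC, and 6 of these genes reached a group mean of 0.1 TPM. Hoxb (chromosome 11, 96194316 to 96368256, 10 genes) summed to 1.42, 1.53 and 1.90 TPM, and 6 of its genes reached 0.1 TPM. Hoxd (chromosome 2, 74668310 to 74765142, 9 genes) summed to 1.05, 1.30 and 1.27 TPM, and 5 of its genes reached 0.1 TPM.

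By paralogue number, the mESC sum was lowest for the anterior genes, which are also the fewest. The 7 anterior genes described (numbers 1 to 3) summed to means of 0.195, 0.311 and 0.213 TPM in XX, XY and Tet3-/- mESC, the 15 central genes (4 to 8) to 2.55, 4.61 and 3.30 TPM, and the 16 posterior genes (9 to 13) to 4.75, 4.28 and 6.44 TPM. A group mean of 0.1 TPM was reached by 3 of the 7 anterior, 10 of the 15 central and 13 of the 16 posterior genes. In EpiLC the anterior sums were 0.0661, 0.189 and 0.515 TPM, the central sums 0.595, 0.552 and 0.689 TPM, and the posterior sums 1.07, 0.993 and 1.43 TPM. The mean central and posterior sums were thus lower in EpiLC in each genotype. The mean anterior sum was lower in EpiLC in XX and XY and higher in Tet3-/-. Per library the anterior sum of Tet3-/- was 0.351, 0.150, 0.0612 and 0.290 TPM in mESC #1 to #4. In EpiLC it was 0.351, 0.706 and 0.487 TPM in #1, #3 and #4. Of the EpiLC sums in #1 and #4, 0.11 and 0.218 TPM came from a processed transcript of Hoxb3. That transcript is not annotated as coding and was at 0 in #3 and in all other groups. In #3, Hoxb1 alone gave 0.382 TPM. Whether coding anterior Hox RNA rose in Tet3-/- was not tested.

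**Figure D2:**
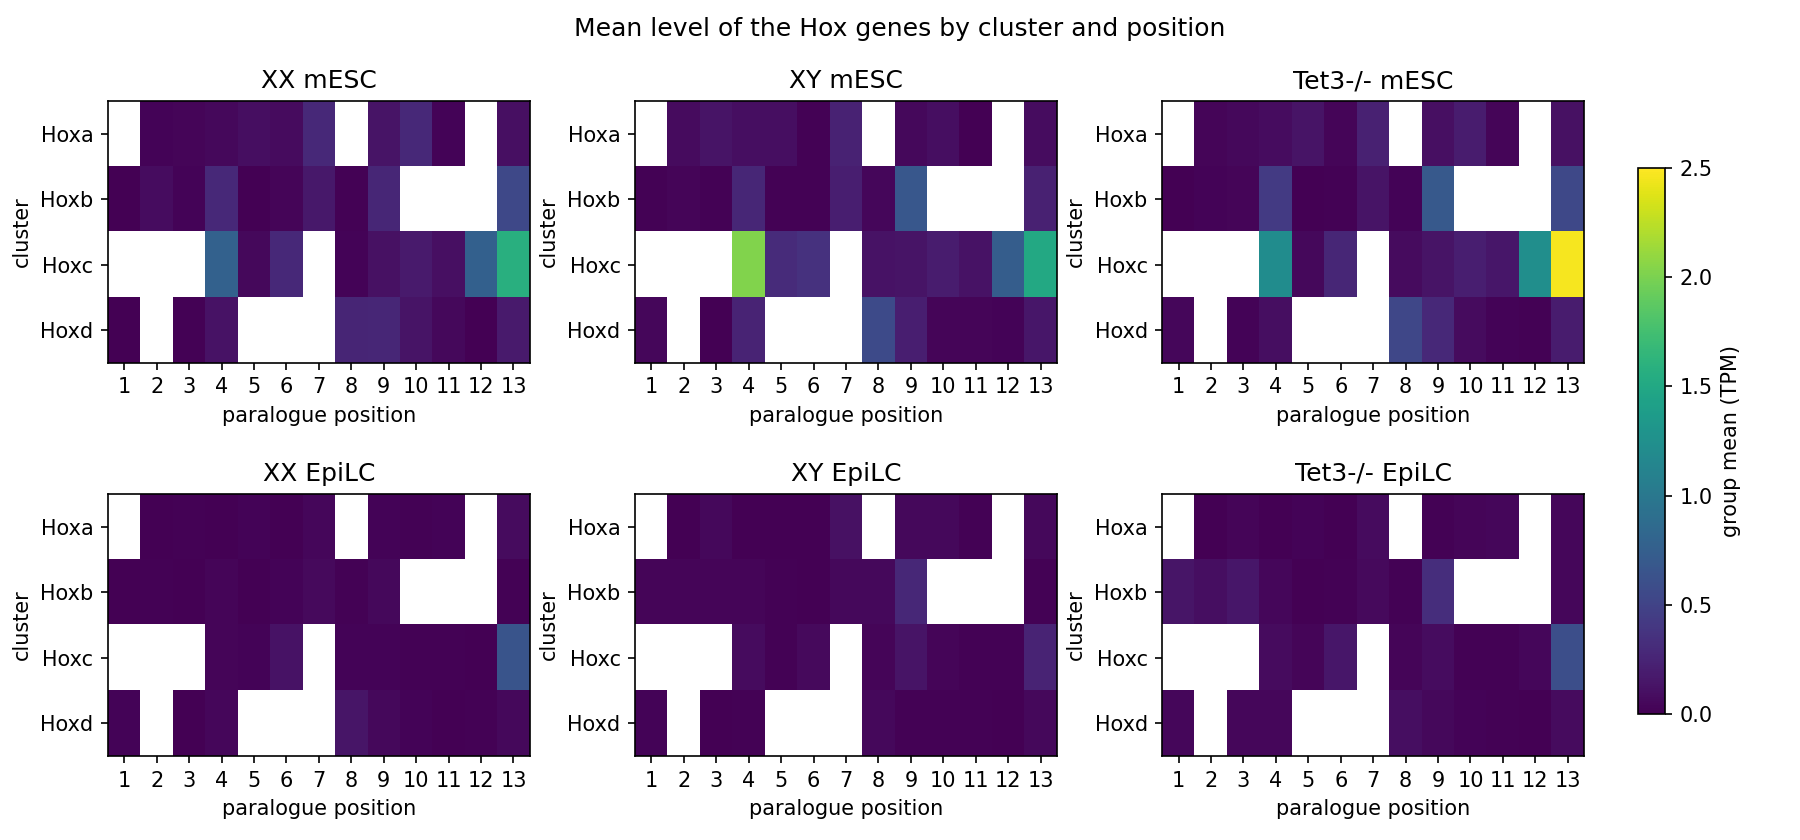
Mean TPM (colour, 0 to 2.5) of each Hox gene by paralogue number (x axis) and cluster (y axis) in the 6 groups, 1 panel a group, with white where no gene is shown. The brightest cells in mESC are Hoxc13 in each genotype, Hoxc4 in XY, and Hoxc4 and Hoxc12 in Tet3-/-, and no cell reaches 1 TPM in EpiLC.

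Hoxc13, which acts in hair follicles and nails later in development, had the highest mESC mean of the posterior genes in each genotype. It lies on chromosome 15, 102921103 to 102928814, at the end of its cluster. It measured 1.46, 1.41 and 1.87 TPM in XX mESC, 1.53, 1.51 and 1.5 TPM in XY mESC, and 2.47, 1.91, 2.49 and 3.00 TPM in Tet3-/- mESC. In EpiLC it measured 0.628, 0.666 and 0.661 TPM in XX, 0.259, 0.240 and 0.237 TPM in XY, and 0.385, 0.983 and 0.446 TPM in Tet3-/- #1, #3 and #4. All mESC libraries lay above all EpiLC libraries, and Tet3-/- #3 lay above the other EpiLC libraries.

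Hoxc12, the neighbour of Hoxc13 (102936757 to 102938609), was present in mESC and at or near 0 in EpiLC. It measured 0.399, 1.17 and 0.744 TPM in XX mESC, 0.680, 0.336 and 1.19 TPM in XY mESC, and 1.22, 1.24, 0.992 and 1.47 TPM in Tet3-/- mESC. In EpiLC it was listed at 0 in 6 of 9 libraries, all 3 of XX among them, and measured 0.0300 TPM in XY 1 and 0.103 and 0.0224 TPM in Tet3-/- #3 and #4. The spread within XX and XY mESC was wide, and the states did not overlap.

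Hoxc4, the most anterior gene of its cluster (103018934 to 103036852), lies at the other end. It measured 0.691, 0.740 and 0.912 TPM in XX mESC, 1.69, 1.22 and 3.19 TPM in XY mESC, and 1.15, 1.03, 1.07 and 1.60 TPM in Tet3-/- mESC. Its 9 EpiLC values ran from 0.0178 to 0.138 TPM. The XX mESC libraries lay below both other mESC groups, and XY 3 stood above its 2 fellows. Most of its mESC RNA came from 1 of its annotated transcripts, the one that starts at the promoter shown further on, with means of 0.733, 1.92 and 1.14 TPM in XX, XY and Tet3-/-, against 0.0480, 0.108 and 0.0697 TPM for the other.

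**Figure D3:**
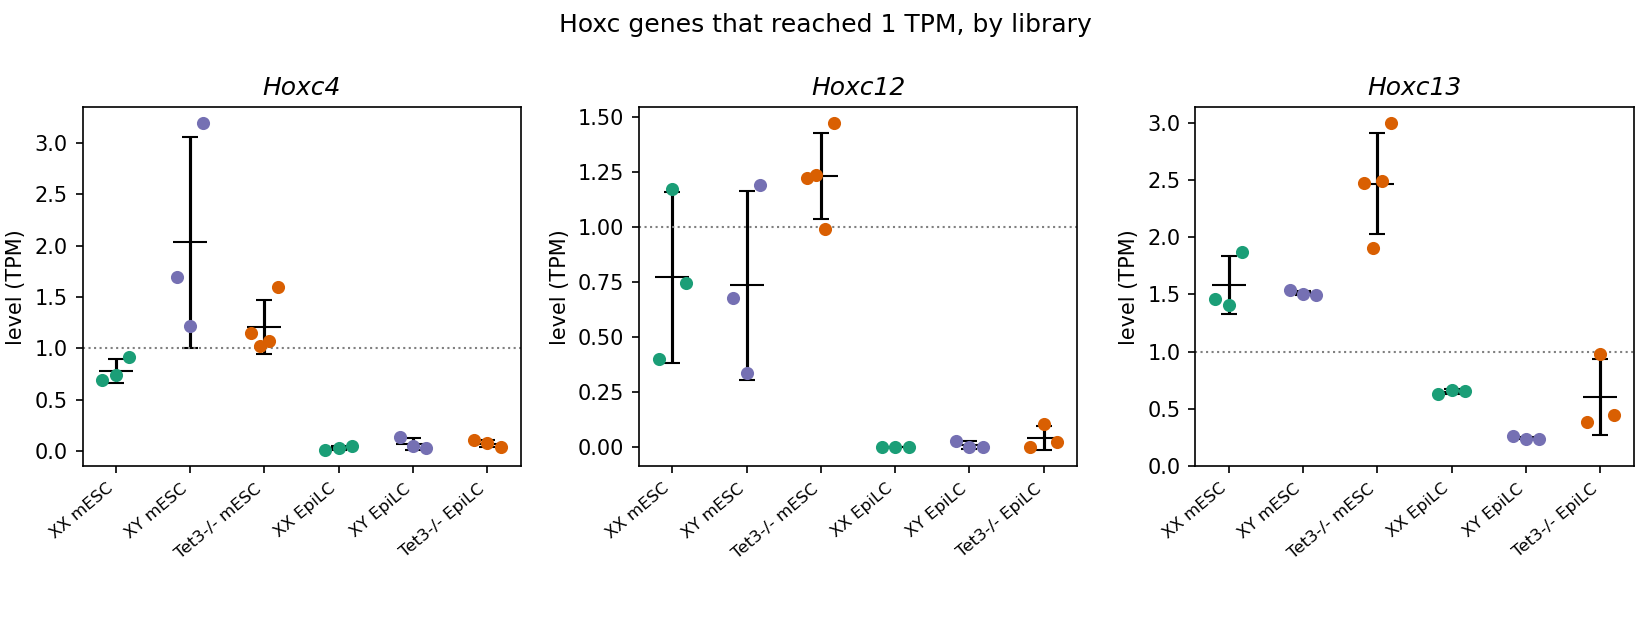
TPM (y axis) of Hoxc4, Hoxc12 and Hoxc13 in each library (points) of the 6 groups (x axis), with bars for the mean ± SD and a dotted line at 1 TPM. All 3 genes lie lower in EpiLC in each genotype, with no overlap between the states.

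The change from mESC to EpiLC was tested within each genotype, which asks how the Hox genes moved as the cells left naive pluripotency. limma was fitted to log2(TPM + 1) of 14972 genes with at least 1 TPM in at least 3 libraries, and differences are on that scale, which understates changes of low genes. Of the 38 Hox genes only these 3 passed the filter. They passed through the mESC libraries in which they were high, and this choice favours a fall. Their share of calls therefore says nothing about the other 35 and is not to be weighed against the share over all tested genes. Over all tested genes the median difference was 0.14 for XX, 0.54 for XY and -0.13 for Tet3-/-, so the Hox values below are also to be read against those shifts.

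In the XX transition Hoxc4, Hoxc12 and Hoxc13 fell, where 12.2% of all tested genes were called lower. Hoxc13 fell by 0.64 (SE 0.16, limma adjusted p 0.00381), from 1.58 ± 0.253 to 0.652 ± 0.0205 TPM (SD, n = 3 each). Hoxc4 fell by 0.78 (SE 0.18, limma adjusted p 0.00222), from 0.781 ± 0.116 to 0.0343 ± 0.0183 TPM (SD, n = 3 each). Hoxc12 also fell (limma adjusted p 0.00138), and no fold is given because it is listed at 0 in XX EpiLC.

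In the XY transition the same 3 genes fell, where 9.36% of all tested genes were called lower. Hoxc4 fell by 1.45 (SE 0.18, limma adjusted p 2.35e-06), from 2.03 ± 1.03 to 0.0726 ± 0.0577 TPM (SD, n = 3 each). Hoxc13 fell by 1.01 (SE 0.16, limma adjusted p 3.18e-05), a mean ratio of 6.15 between the states. Hoxc12 fell by 0.75 (SE 0.17, limma adjusted p 0.00147).

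In the Tet3-/- transition they fell again, where 21.5% of all tested genes were called lower. Hoxc13 fell by 1.12 (SE 0.15, limma adjusted p 5.98e-06), from 2.47 ± 0.445 (SD, n = 4) to 0.605 ± 0.329 TPM (SD, n = 3). Hoxc12 fell by 1.1 (SE 0.16, limma adjusted p 2.51e-05), and Hoxc4 fell by 1.03 (SE 0.17, limma adjusted p 6.99e-05), with a mean ratio of 15.8 between the states for Hoxc4.

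Across the 38 genes, the mean was lower in EpiLC for 35 in XX, 31 in XY and 31 in Tet3-/-, which is 92.1%, 81.6% and 81.6%. Of all 46217 genes above 0 in some library, 43.2%, 26.8% and 46.6% were lower. Genes at 0 in both groups compared stay in this total, which lowers the shares over all genes given here. Every EpiLC library lay below every mESC library for 22 Hox genes in XX, 19 in XY and 16 in Tet3-/-, while 10.6%, 6.6% and 10.8% of all genes showed this. None of the 38 lay wholly higher in EpiLC in any genotype, while 15.4%, 24.5% and 8.11% of all genes did. Genes that lay wholly lower in all 3 genotypes numbered 9: Hoxa4, Hoxb4, Hoxb13, Hoxc4, Hoxc10, Hoxc11, Hoxc12, Hoxc13 and Hoxd9. The 10 genes that did so in none were Hoxa2, Hoxa11, Hoxa13, Hoxb1, Hoxb5, Hoxb6, Hoxb8, Hoxd1, Hoxd3 and Hoxd11. No share over all genes is set beside the counts of 9 and 10.

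With no filter, so that all 38 could be tested among 46217 genes, limma called 9 Hox genes lower in XX, 16 in XY and 10 in Tet3-/-, against 4.53%, 4.38% and 8.09% of all genes. In XX these were Hoxa7, Hoxa10, Hoxb4, Hoxb13, Hoxc4, Hoxc10, Hoxc12, Hoxc13 and Hoxd10. In Tet3-/-, Hoxb2 was called higher, by 0.10, where 5.21% of all genes were called higher. Over the 38 genes the median difference was -0.10 for XX, -0.11 for XY and -0.08 for Tet3-/-, and over all genes in this fit it was 0.00, 0.03 and 0.00.

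Among the genes under 1 TPM, Hoxb4 and Hoxb13 separated the states in each genotype. Hoxb13, which lies far from the rest of the Hoxb cluster and is known from the prostate and tail bud, measured 0.371, 0.928 and 0.335 TPM in XX mESC, 0.212, 0.221 and 0.270 TPM in XY mESC and 0.506, 0.512, 0.491 and 0.649 TPM in Tet3-/- mESC, and at most 0.0523 TPM in EpiLC. Hoxb4, known for its action in blood stem cells, measured 0.250 to 0.333 TPM in XX mESC, 0.258 to 0.296 TPM in XY mESC and 0.329 to 0.572 TPM in Tet3-/- mESC, and at most 0.0597 TPM in EpiLC. Hoxd9 ran from 0.133 to 0.476 TPM in mESC and from 0 to 0.0765 TPM in EpiLC. Of the Hoxb genes between Hoxb4 and Hoxb9, Hoxb5, Hoxb6 and Hoxb8 stayed at or under 0.0843 TPM in all 19 libraries, and Hoxb7 reached 0.447 TPM in XY mESC 2.

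The Hoxb4 and Hoxc4 promoters are shown with that of Hoxb1, which has the same cluster as Hoxb4 and did not separate the states. Each line is the 250 bases before a RefSeq start on the plus strand, 5′ to 3′, from RefSeq (GRCm38.p6), with CG dinucleotides in capitals. The Hoxc4 window lies inside the GENCODE span of the gene, just before the start of the shorter of its annotated transcripts.
Hoxb1 (chr11:96365508-96365757): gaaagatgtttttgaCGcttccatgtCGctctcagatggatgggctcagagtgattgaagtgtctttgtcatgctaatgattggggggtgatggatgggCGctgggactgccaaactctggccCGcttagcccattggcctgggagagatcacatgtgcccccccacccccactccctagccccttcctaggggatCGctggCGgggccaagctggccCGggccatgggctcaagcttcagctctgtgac
Hoxb4 (chr11:96318017-96318266): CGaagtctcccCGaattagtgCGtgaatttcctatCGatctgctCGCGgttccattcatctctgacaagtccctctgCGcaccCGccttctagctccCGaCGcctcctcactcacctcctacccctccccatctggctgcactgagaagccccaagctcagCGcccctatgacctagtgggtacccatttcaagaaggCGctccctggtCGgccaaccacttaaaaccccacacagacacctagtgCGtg
Hoxc4 (chr15:103034145-103034394): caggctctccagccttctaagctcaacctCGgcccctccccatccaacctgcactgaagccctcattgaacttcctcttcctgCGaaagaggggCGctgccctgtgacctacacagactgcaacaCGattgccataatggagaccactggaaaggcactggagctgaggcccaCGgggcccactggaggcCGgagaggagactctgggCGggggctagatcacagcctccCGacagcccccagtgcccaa
The windows hold 7 (Hoxb1), 14 (Hoxb4) and 8 (Hoxc4) CpG dinucleotides, and 46.3%, 29.4% and 43.0% of all 32851 windows in the table hold as many or more. The Pbx-Hox composite motif TGATNNAT was found once in the Hoxb1 window and in neither other, and in 7.68% of all windows. The retinoid receptor motif AGGTCA was found once each in the Hoxb4 and Hoxc4 windows and not in the Hoxb1 window, and in 14.0% of all windows. Both strands were searched. Over the 22 Hox genes matched in the table (24 windows), the median number of CpG was 12.5, with a range of 2 to 35, against 6 over all windows, and TGATNNAT was in 4 windows and AGGTCA in 6.

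Tet3-/- cells were set against XX cells in mESC and in EpiLC. None of the 3 tested Hox genes was called by limma in mESC, where 0.601% of all tested genes were, and 2 had an unadjusted p under 0.05. Hoxc13 was 0.42 higher in Tet3-/- mESC (SE 0.15, limma p 0.00973, adjusted p 0.282), and all 4 mutant libraries lay above all 3 XX libraries. Hoxc12 was 0.35 higher (limma p 0.0429, adjusted p 0.52), and its groups overlapped. The median of all tested genes for this comparison was 0.19. Hoxb9, Hoxc4, Hoxc8 and Hoxc13 lay wholly higher in the mutants, where 4.58% of all genes did, and Hoxb2 wholly lower, where 0.705% did. Hoxb9 measured 0.238, 0.294 and 0.281 TPM in XX mESC and 0.732, 0.666, 0.507 and 0.886 TPM in Tet3-/- mESC.

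In EpiLC none of the 3 was called between Tet3-/- and XX, where 1.08% of all tested genes were, and none had an unadjusted p under 0.05. The difference was -0.06 for Hoxc13 (limma adjusted p 1). Hoxb1, Hoxb3, Hoxb9, Hoxb13 and Hoxd3 lay wholly higher in the mutants, where 4.81% of all genes did, and none lay wholly lower, where 6.11% did. Without mutant #3, with 2 libraries against 3, there were 9 wholly higher, where 13.6% of all genes were, and 2 wholly lower (Hoxa13 and Hoxc13), where 24.6% were. Hoxb3 was uneven among the mutants, with 0.153, 0.0139 and 0.276 TPM in #1, #3 and #4, and 0 to 0.0133 TPM in XX. Of the values in #1 and #4, 0.11 and 0.218 TPM came from a processed transcript of the gene that is not annotated as coding and was at 0 in #3 and in all other groups. For none of the 3 was a difference in the size of the change called between Tet3-/- and XX, where 0.174% of all tested genes were called, and 1 had an unadjusted p under 0.05, Hoxc13 with -0.48 (limma p 0.0366, adjusted p 0.603). The XX libraries serve in these comparisons and in those with XY below.

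The targeted gene was measured in every group as a check of the labels. Tet3 had a mean of 0.761 TPM in XX mESC and 0.661 TPM in Tet3-/- mESC (difference -0.08, limma adjusted p 0.885), and 1.65 and 1.04 TPM in EpiLC (-0.39, limma adjusted p 0.525). Which exons were removed is not given in the sources used here, so the summed transcript level does not test the label. Protein-coding genes held from 21.4% to 46.7% of TPM per library, the lowest in XX mESC 1 and the highest in XY EpiLC, and 11128 to 13811 genes had at least 1 TPM. Of 8 naive markers 8 fell in XX, 7 in XY and 8 in Tet3-/-, where 12.2%, 9.36% and 21.5% of all tested genes were called lower. Of 6 formative markers 4, 6 and 4 rose, with 1 falling in XX, where 19.2%, 41.1% and 13.6% of all tested genes were called higher. Of the naive markers 1 had no EpiLC group mean of 1 TPM, and of the formative markers 2 had no mESC group mean of 1 TPM. These passed the filter through the state in which they were high. Summed markers of other cell types per library ran from 0.455 to 2.61 TPM (6 neural), 0.277 to 12.2 TPM (6 endoderm), 1.38 to 20.0 TPM (5 trophoblast) and 0.683 to 9.50 TPM (7 fibroblast), and their part in the Hox values was not tested.

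One EpiLC library, Tet3-/- #3, stood apart in markers of the primitive streak, in other marker lists and in some Hox genes. T, the streak and mesoderm factor, measured 94.3 TPM in #3 and 1.03 and 0.843 TPM in #1 and #4, and the 7 streak markers summed to 144 TPM in #3, to 7.55 and 7.04 TPM in the other mutants, to 6.11 to 7.68 TPM in XX EpiLC and to 25.5 to 37.5 TPM in XY EpiLC. Mixl1 and Eomes measured 12.9 and 17.4 TPM in #3, and Msgn1 1.03 TPM, while Msgn1 was at 0 in XX EpiLC and in #1. Evx1 measured 2.86 TPM in #3 and at most 0.0996 TPM in the other EpiLC libraries, and Cdx2, a posterior activator of Hox genes, measured 1.33 TPM in #3 and at most 0.0630 TPM in the others. Mutant #3 was the highest of the 9 EpiLC libraries for 9 Hox genes, as was XY 1 for 9 others, with no share over all genes set beside these counts. Those of #3 were Hoxb1, Hoxb2, Hoxb9, Hoxb13, Hoxc12, Hoxc13, Hoxd1, Hoxd4 and Hoxd13. Hoxb1, which marks the early posterior epiblast, measured 0.382 TPM in #3, 0.0363 and 0.0139 TPM in #1 and #4, and at most 0.0518 TPM in the wildtype EpiLC. Hoxb9 measured 0.674 TPM in #3 and 0.186 and 0.119 TPM in #1 and #4. T was also at 17.3 to 27.3 TPM in XY EpiLC. The endoderm markers summed to 12.2 TPM in #3, to 0.772 and 0.913 TPM in #1 and #4, to 0.944 to 1.03 TPM in XX EpiLC and to 5.86 to 6.10 TPM in XY EpiLC. The formative markers summed to 164 TPM in #3, 50.1 and 47.4 TPM in #1 and #4, 44.4 to 52.8 TPM in XX and 271 to 345 TPM in XY. The trophoblast markers summed to 12.1 TPM in #3, 5.11 and 4.05 TPM in #1 and #4, 8.23 to 9.85 TPM in XX and 2.72 to 2.96 TPM in XY. The naive markers also summed higher in #3 than in the other mutants, to 67.0 TPM against 27.1 and 29.1 TPM in #1 and #4. In wildtype EpiLC they summed to 79.3 to 88.4 TPM (XX) and 83.9 to 91.7 TPM (XY). Protein-coding genes held 37.4% of TPM in #3 and 28.2% and 28.4% in #1 and #4. The part of these markers and of this share in the Hox values of #3 was not tested.

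**Figure D4:**
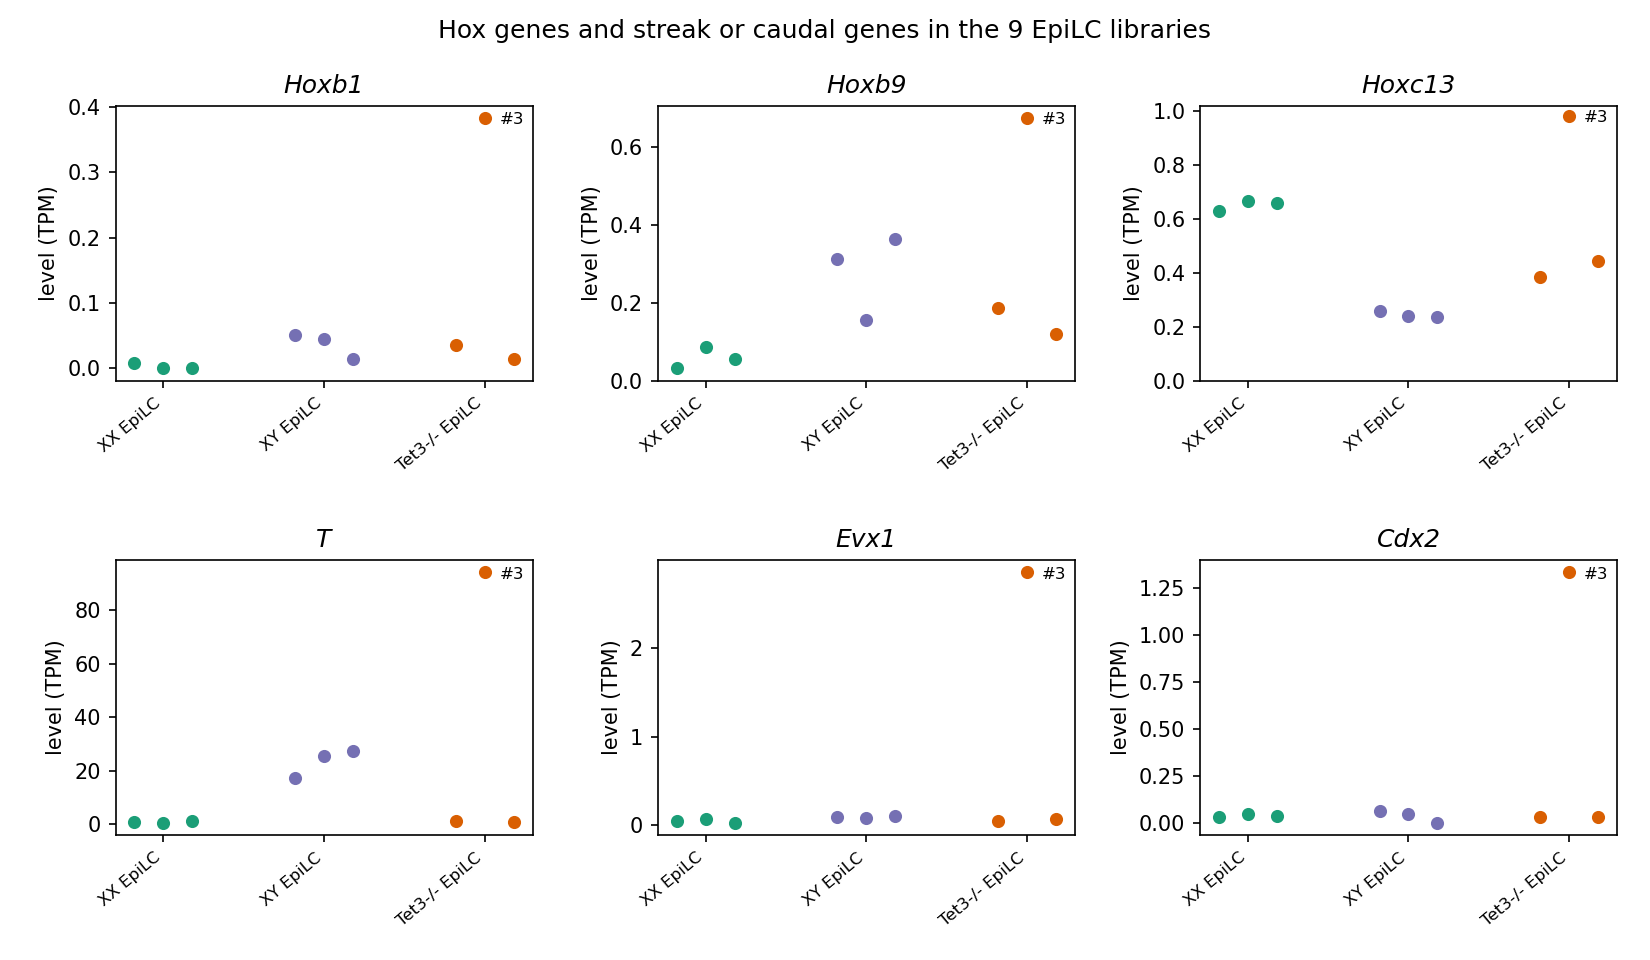
TPM (y axis, each panel with its own range) of Hoxb1, Hoxb9, Hoxc13, T, Evx1 and Cdx2 in the 9 EpiLC libraries (points) by genotype (x axis), with Tet3-/- #3 labelled. Mutant #3 is the highest point in all 6 panels, at 0.382 TPM for Hoxb1 and 94.3 TPM for T.

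The wildtype lines were also set against each other. In mESC, Hoxc4 was lower in XX, where 7.73% of all tested genes were called lower. The difference was -0.72 (SE 0.18, limma adjusted p 0.0106), beside a median of -0.19 over all tested genes. Hoxc4 lost its call without XY 3, the library with 3.19 TPM (limma adjusted p 0.0581), and in a fit of only these groups (limma adjusted p 0.166). Hoxc13 and Hoxc12 differed by 0.03 (limma adjusted p 0.915) and 0.04 (limma adjusted p 0.921). Lying wholly lower in XX were 9 genes (Hoxa3, Hoxb9, Hoxc4, Hoxc5, Hoxc8, Hoxd1, Hoxd4, Hoxd8 and Hoxd12), where 8.23% of all genes did. Wholly higher in XX were 5 (Hoxa6, Hoxa9, Hoxa11, Hoxb13 and Hoxd10), where 6.2% did. Hoxc5, next to Hoxc4, measured 0.238, 0.231 and 0.451 TPM in XY mESC and at most 0.0873 TPM elsewhere. The annotated span of Hoxc5 overlaps those of other Hoxc genes, and whether they share reads was not tested.

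The upstream regulators Cdx1 and Cdx2 also differed between XX and XY mESC. Of the 10 tested genes in the list of Hox partners and upstream regulators, 3 were called lower in XX and 1 higher. Over all 14972 tested genes, 1158 were called lower and 963 higher. Cdx1, a caudal-type activator of Hox genes, measured 4.35, 4.33 and 5.63 TPM in XY mESC, and Cdx2 measured 2.83, 5.90 and 3.89 TPM. In XX mESC Cdx1 measured 0.0545, 2.61 and 0.118 TPM and Cdx2 0.0788, 0.585 and 0.0531 TPM, so XX 2 was far above its fellows for both. Between XX and XY mESC Cdx1 differed by -1.82 (limma adjusted p 0.00119) and Cdx2 by -2.06 (limma adjusted p 4.96e-05). T measured 4.75, 7.64 and 7.81 TPM in XY mESC, and the streak markers summed to 7.46 to 11.8 TPM there against 0.843 to 1.45 TPM in XX, with Msgn1 at 0 in XY mESC. The part of these in the Hox difference was not tested.

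In EpiLC, Hoxc13 was 0.41 higher in XX (SE 0.16, limma adjusted p 0.0407), where 5.23% of all tested genes were called higher, and the median of all tested genes was -0.59. The call was lost with any 1 of the 6 libraries left out. Hoxc13, Hoxd4 and Hoxd8 lay wholly higher in XX EpiLC, where 4.69% of all genes did, and Hoxb1, Hoxb5, Hoxb8, Hoxb9 and Hoxc9 wholly lower, where 32.1% did. Between the XX and XY transitions none of the 3 was called, where 16% of all tested genes were, with a median of -0.40 over all of them, and 1 had an unadjusted p under 0.05. The difference of the transitions was 0.66 for Hoxc4 (limma p 0.0168, adjusted p 0.0842) and 0.37 for Hoxc13 (limma adjusted p 0.28). Hoxc4 passed after median-of-ratios scaling.

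Hox proteins bind DNA with Pbx and Meis partners, and Pbx2 and Pbx3 rose in each genotype while Meis2 fell. Of 11 listed partners and upstream regulators 10 were tested, and 2, 5 and 2 rose and 3, 3 and 3 fell in XX, XY and Tet3-/-. Of all tested genes 19.2%, 41.1% and 13.6% were called higher and 12.2%, 9.36% and 21.5% lower. Of the 10, 2 had no mESC group mean of 1 TPM and 3 no EpiLC group mean of 1 TPM, so these passed the filter through the state in which they were high. Pbx2 rose by 1.41 (limma adjusted p 0.000137) in XX, 1.96 (limma adjusted p 2.02e-06) in XY and 1.12 (limma adjusted p 0.000552) in Tet3-/-, from means of 3.94, 5.67 and 4.89 TPM to 12.0, 24.4 and 12.2 TPM. Pbx3 rose by 1.86, 3.03 and 1.47 (limma adjusted p 0.000105, 2.03e-07 and 0.000458). The Meis2 differences were -1.86 in XX (limma adjusted p 6.39e-05), -1.48 in XY (limma adjusted p 0.000395) and -2.13 in Tet3-/- (limma adjusted p 5.05e-06), from 5.78, 11.9 and 7.06 TPM to 0.781, 3.36 and 0.854 TPM. Meis1 also fell in XX and Tet3-/-, with -0.56 and -0.67 (limma adjusted p 0.0224 and 0.00362), and did not pass in XY. None of the 10 was called between Tet3-/- and XX in either state.

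**Figure D5:**
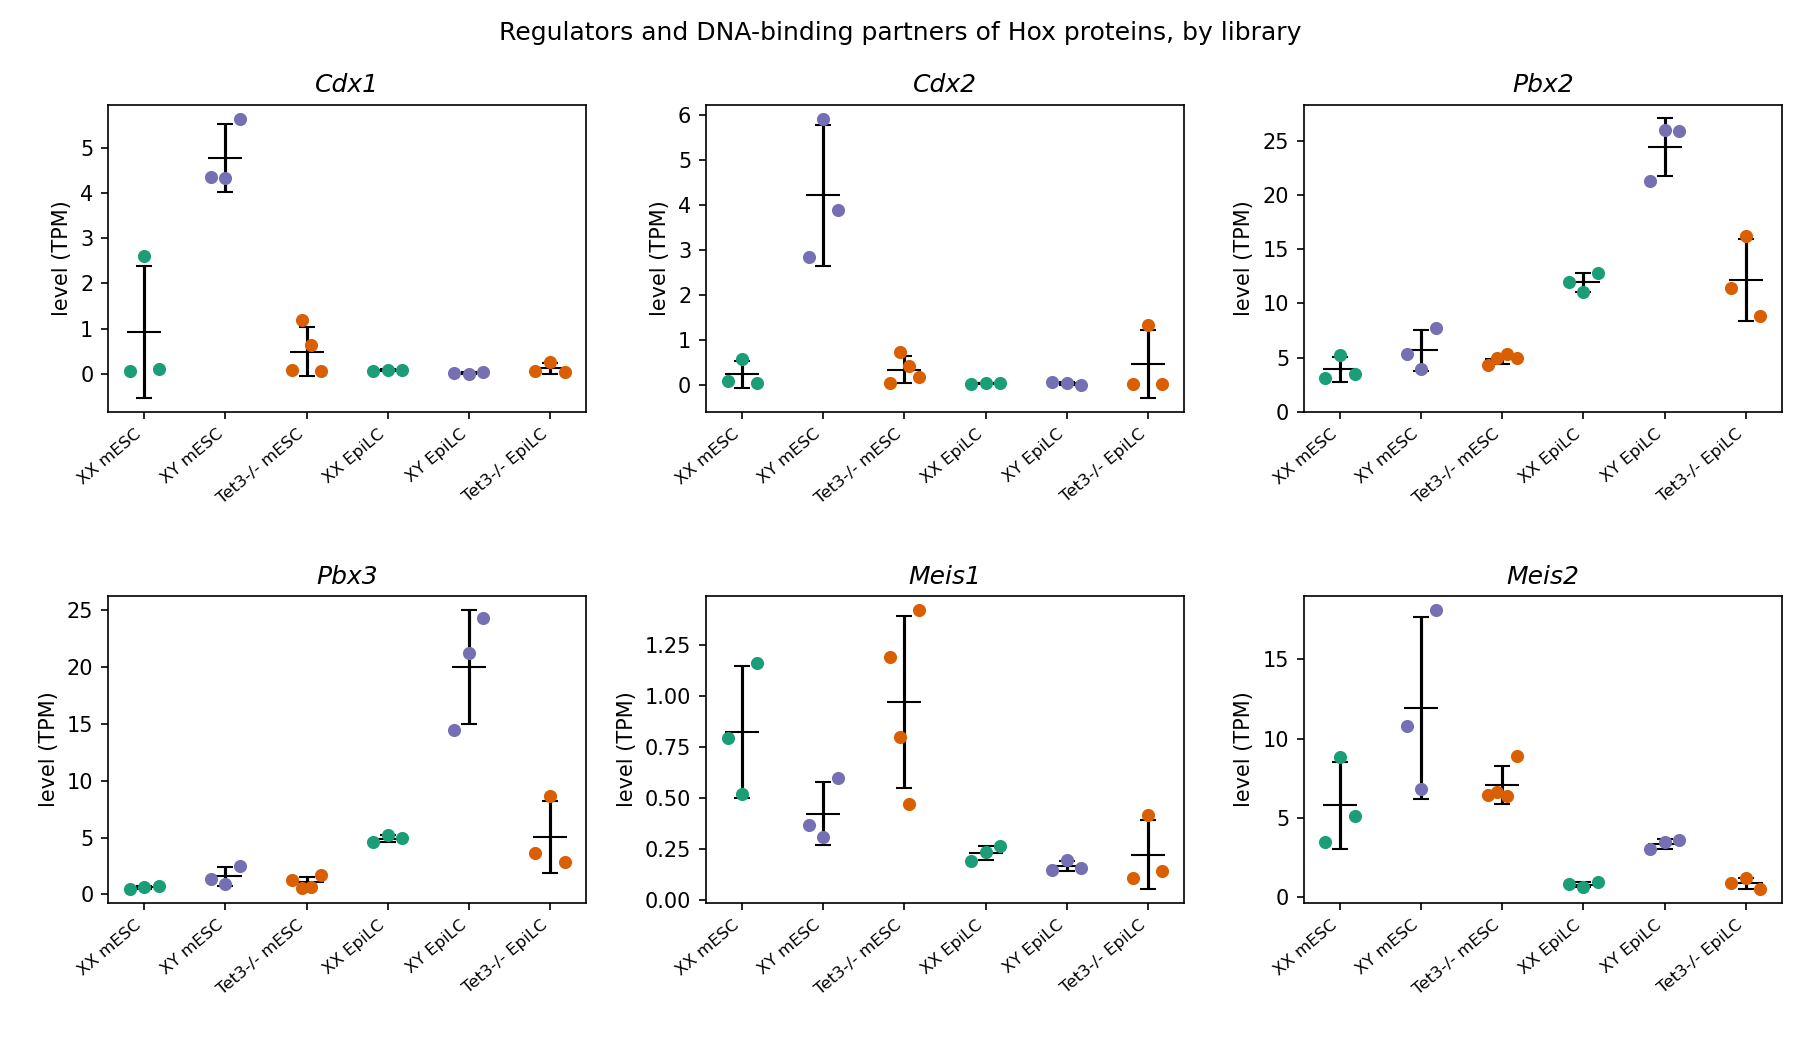
TPM (y axis) of the upstream regulators Cdx1 and Cdx2 and the partner genes Pbx2, Pbx3, Meis1 and Meis2 in each library (points) of the 6 groups (x axis), with bars for the mean ± SD. Pbx2 and Pbx3 are higher in EpiLC and Meis2 is lower in each genotype, and each XY mESC library lies above all other libraries for Cdx1 and Cdx2.

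Of 15 listed retinoic acid pathway genes 10 were tested, and 4, 9 and 3 rose in XX, XY and Tet3-/- and none fell, where 19.2%, 41.1% and 13.6% of all tested genes were called higher. Of the 10, 4 had a mean under 1 TPM in each mESC group and passed the filter through EpiLC, so the count says nothing about the list as a whole. Crabp2, a binding protein that carries retinoic acid to its receptors, rose from 0.148, 0.318 and 0.186 TPM to 7.79, 63.8 and 8.34 TPM, by 2.94, 5.62 and 2.96 (limma adjusted p 6.32e-10, 1.35e-13 and 1.71e-10). The receptor gene Rarg rose from 1.84, 7.49 and 2.66 TPM to 15.4, 28.3 and 12.6 TPM. Cyp26a1, which breaks retinoic acid down, had a mean of 7.52 TPM in Tet3-/- EpiLC, with 20.9 TPM in #3.

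Within the 4 cluster spans, 46 other annotated genes were found, and 5 passed the filter. Gm53, a long non-coding RNA, had more RNA than any of the 38 Hox genes, with means of 13.0, 13.6 and 19.3 TPM in XX, XY and Tet3-/- mESC and 3.65, 10.7 and 4.57 TPM in EpiLC. It fell in XX by 1.57 (limma adjusted p 0.000703) and in Tet3-/- by 1.85 (limma adjusted p 5.6e-05) and did not pass in XY (-0.32, limma adjusted p 0.403). Of the 5 tested genes that flank the clusters, 2, 1 and 3 fell and 0, 2 and 0 rose in XX, XY and Tet3-/-, beside 12.2%, 9.36% and 21.5% of all tested genes called lower and 19.2%, 41.1% and 13.6% called higher. Skap2, beyond the Hoxa cluster, fell in each, with -0.89, -0.59 and -1.60 (limma adjusted p 0.00814, 0.0491 and 1.59e-05), and Ttll6, beyond Hoxb13, fell in XX and Tet3-/-, with -1.02 and -1.47 (limma adjusted p 0.00286 and 3.75e-05).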

How the data were processed

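RNA was measured by stranded total RNA sequencing after removal of ribosomal RNA, per the labels' protocols. The authors deposited TPM per transcript for 140948 transcripts in 19 libraries. The submitters' processing notes name FastQC 0.11.7, Trimmomatic 0.35, Salmon 1.1.0 and GRCm38, and the settings and the annotation are not given in the sources used here. Since TPM holds no sequencing depth, no depth or counting interval is given, and the spread between libraries is the measure of precision.

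Transcripts were summed per gene with GENCODE M21. Of these, 139357 matched with their version, 495 without it, and 1096 (0.0454% to 0.215% of TPM) were left out. 1 limma model (version 3.58.1, R 4.3.3, with lmFit, contrasts.fit and trended eBayes) held the 6 groups on the log2(TPM + 1) scale, over 14972 genes with at least 1 TPM in at least 3 libraries. Benjamini-Hochberg adjustment ran over all genes in each of 9 comparisons, and a gene counted as called at an adjusted p under 0.05. Counts and sequences were handled in Python 3.11.15. A gene lay wholly lower or higher where no library of one group overlapped the other.

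On simulated data, in which 200 of 14972 genes were changed, the model recovered changes of 2 log2 units for 94% in the XX transition, 95% for Tet3-/- against XX mESC and 68.5% for the difference of the XX and XY transitions, and changes of 1 log2 unit for 32%, 36% and 2%. The changed genes were drawn only from genes with a mean above 1 on the log2(TPM + 1) scale. These shares therefore do not describe lower genes, most of the Hox genes among them.

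Of the 39 member genes 1, and 1 gene of the partner list, are not reported here, and both stayed in the fits over all genes. Any of the other 38 could be named, those with a group mean of at least 1 TPM with every library, and genes of the partner, retinoic acid, inner, flanking and marker lists. The members and lists were chosen with earlier results of these data known. The alternatives tried were no filter, a pseudocount of 0.1, a minimum of 5 TPM in 3 libraries, median-of-ratios scaling, TPM rescaled over nuclear protein-coding genes, a fit of only the groups compared, a replicate block and each library left out.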

Additional observations from a re-analysis of the deposited data

Results flagged for a closer look

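In Tet3-/- mESC, mutant #4 stood far above the other 3 libraries for 3 of the 38 Hox genes, with a gap to the next library larger than Dixon's 95% critical value for 4 samples. Hoxb13 measured 0.649 TPM in #4 and 0.491 to 0.512 TPM in the others. Hoxa6 measured 0.0784 TPM in #4 and at most 0.0224 TPM in the others. Hoxd12 measured 0.0383 TPM in #4 and at most 0.0064 TPM in the others. All 38 genes were examined in this way, and chance flags about 1 in 20 such groups. Mutant #4 was the highest of all 19 libraries for 10 Hox genes, with no share over all genes set beside this count.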

How the results depend on the processing

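The transition counts were 3 (XX), 3 (XY) and 3 (Tet3-/-) called Hox genes. Under the alternatives that left Hox genes to test, these counts moved only with no filter, to 9, 16 and 11. The 0 calls between Tet3-/- and XX held under each of those alternatives. With at least 5 TPM required, no Hox gene was left to test. For XX against XY in mESC the count of 1 became 5 with no filter, 0 in a fit of only the groups compared or with a replicate block, and 0 to 1 with a library left out. In EpiLC the count of 1 became 0 with no filter or any library left out. For the difference of the XX and XY transitions the count of 0 became 1 with no filter (Hoxc5) or median-of-ratios scaling (Hoxc4), and 0 to 1 with a library left out. The block pairs same-numbered libraries, whose deviations from their group means correlated with r from -0.0488 to 0.303, against -0.344 to 0.282 for other pairs. In XY and Tet3-/- the pairs numbered 1 and 3 had r of 0.186 to 0.303, and the other 2 pairs had -0.0426 and -0.0202. The block changed no other count of called Hox genes. Genes with a group mean of at least 1 TPM numbered 11 after rescaling over protein-coding genes, against 3. Counts of wholly separated genes were recomputed under alternatives chosen after seeing the data. In the Tet3-/- transition 2 (Hoxb1 and Hoxb2) became wholly higher under median-of-ratios scaling or rescaling, where 11.2% and 9.96% of all genes were. Without mutant #3, 2 (Hoxb3 and Hoxb8) were wholly higher, where 12.4% of all genes were, and 20 wholly lower against 16 with it, where 21.9% were. Between Tet3-/- and XX EpiLC without #3, 9 lay wholly higher and 2 wholly lower, where 13.6% and 24.6% of all genes did.

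Changes of sign arose only in values that had not passed. With a library left out, Hoxc13 in Tet3-/- against XX EpiLC ran from -0.223 to 0.0361 (positive without #1 or #4). For XX against XY mESC, Hoxc12 ran from -0.138 to 0.218 (negative without XX 2 or XY 2) and Hoxc13 from -0.0451 (without XX 3) to 0.0813. For XX minus XY transitions, Hoxc12 ran from -0.233 to 0.124 (positive without XX 2 or XY 2 in mESC). After scaling by median of ratios, the medians of all tested genes lay between -0.05 and 0.01. Most Hox values are under 1 TPM, and what depth allows there is unknown.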

Other observations

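Hox genes whose highest library lay in EpiLC numbered 8 of 38: Hoxb1, Hoxb2, Hoxb3, Hoxb5, Hoxb6, Hoxb8, Hoxd1 and Hoxd3. Of these, 6 lie in the Hoxb cluster and 5 have a paralogue number of 3 or lower, and none exceeded 0.382 TPM. Those 5 were all highest in a Tet3-/- library, Hoxb1, Hoxb2 and Hoxd1 in #3, Hoxb3 in #4 and Hoxd3 in #1. Hoxb5, Hoxb6 and Hoxb8 peaked at only 0.0223, 0.0639 and 0.0843 TPM. No share over all genes is set beside the 8 of 38. Hoxa7, a central gene, lay wholly lower in EpiLC in XX, with 0.210 to 0.456 TPM in mESC and 0.0251 to 0.0888 TPM in EpiLC, and in Tet3-/-, with 0.174 to 0.283 TPM and 0.0597 to 0.0922 TPM. In XY its states overlapped, with 0.171 to 0.298 TPM in mESC and 0.0310 to 0.199 TPM in EpiLC.

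Hoxa10 was uneven among mESC libraries. It measured 0.300, 0.0981 and 0.467 TPM in XX, with the low value in XX 2, and 0.253, 0.169, 0.0728 and 0.259 TPM in Tet3-/-, with the low value in #3. XX 2 had the highest values of Hoxb13 and Hoxc12 among XX mESC, 0.928 and 1.17 TPM, and of Cdx1, 2.61 TPM. Protein-coding genes held 41.5% of TPM in XX 2 and 21.4% and 27.5% in XX 1 and 3, and the part of this in the Hox values was not tested.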
